A study of Mus musculus with 12 samples.

Results

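Calcium/calmodulin-dependent protein kinases (CaM kinases) were followed through 10 genes that were chosen by name. They are the 4 genes of CaMKII (Camk2a, Camk2b, Camk2d and Camk2g), the CaMKII inhibitor Camk2n1, the kinases Camkk1, Camkk2, Camk4 and Camk1d of the CaM kinase cascade, and Camkv, a kinase-like protein. All 10 were found in both deposited count tables, which list 20504 entries on coding sequences (CDS) and 23352 entries on exons. Camk2a lies on chromosome 18 between positions 60925307 and 60988152 of GRCm38.p6, the mouse assembly to which the build mm10 corresponds. Camk4 is on the same chromosome, Camk2b and Camkk1 are on chromosome 11, and the other 6 genes are each on a chromosome of their own.

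CaMKII is a multi-subunit kinase that calcium-bound calmodulin switches on and that can stay active by phosphorylating itself. It is among the most abundant proteins of excitatory synapses, where the alpha subunit is needed for long-term potentiation, and Camk2a mRNA is known to be carried into dendrites through its 3′ untranslated region (UTR). In the cascade, CaM kinase kinases (Camkk1, Camkk2) phosphorylate CaM kinase I and CaM kinase IV (Camk1d, Camk4), and CaM kinase IV acts in the nucleus on transcription factors such as CREB.

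The study asked how translation differs between cell types of the mouse brain and how it responds to the inhibition of mTOR. The 12 libraries came from brain tissue of 6 adult mice, 2 per group. Every mouse, the controls included, was a Camk2a-RiboTag animal, in which Cre recombinase driven by the Camk2a promoter adds a hemagglutinin (HA) tag to the ribosomal protein Rpl22. Mice A and B, which the labels call untreated, received vehicle according to the study's methods. Mice C and D were given AZD-8055, which blocks mTOR by competing with ATP, in 1 oral dose of 100 mg/kg and were killed 1 hour later. From the lysate of each of these 4 mice came a ribosome profiling library, which counts the mRNA fragments protected by ribosomes (footprints), and an RNA-Seq library of poly(A) RNA. Mice E and F were untreated, and each gave an RNA-Seq library of the homogenate (input) and of the polysomes pulled down through the HA tag (IP). Because the Camk2a promoter drives Cre, the tagged cells were themselves defined by the regulation of a gene of this family.

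The RNA-Seq libraries held 9309496 to 15585831 counts on CDS and 16796999 to 27878212 on exons, and the footprint libraries 3503873 to 9259938 on CDS, so that counting error was small for the abundant genes and larger for Camk1d and Camk4. As a check of the labelled cell type, all 6 excitatory neuron markers were called higher in the IP than in the input on exon counts, and their summed level, in counts scaled to a common library total (CPM), was 2898 to 3058 in the input and 6807 to 6846 in the IP. The 6 inhibitory neuron markers were called lower, with 936 to 999 CPM in the input and 161 to 213 CPM in the IP. All 6 astrocyte, 6 oligodendrocyte, 3 oligodendrocyte precursor and 4 endothelial markers and 4 of 5 microglial markers were called lower too. On CDS counts 5 of the 6 excitatory markers were called higher and 1 lower, and these other lists gave the same counts of lower genes. Of 5 striatal projection neuron markers tested, 1 was called higher and 1 lower on exons, and 2 higher and 1 lower on CDS. According to the study's methods, the input and the IP of a mouse were taken from the same lysate. These marker differences therefore compare the pulled-down RNA with that of the lysate, and not tissues with more or fewer cells of a type. Between bulk samples of different mice, fewer cells of a type and less RNA per cell cannot be told apart.

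Genes were called with edgeR's quasi-likelihood test at a Benjamini-Hochberg adjusted p under 0.05, fitted on all genes whose counts averaged 37 or more over the libraries, and each fitted change is given on the log2 scale with its standard error (SE). All 10 genes passed this filter in every comparison. The libraries of 1 mouse entered as separate samples, so the SE and p values leave out their pairing. Fits with the mouse as a replicate block are named as such. Counts described as normalized were divided by DESeq2 size factors within 1 table, and the log2 enrichment of a mouse is the ratio of its normalized IP count to its normalized input count.

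On exon counts, all 10 genes had a fitted value above 0 in the IP relative to the input, although Camk2a, Camk2d, Camk2g and Camk1d fell below 0 under scaling by total counts, and 5 were called higher. These were Camkk1, Camkk2, Camkv, Camk2b and Camk2n1. None was called lower by edgeR or DESeq2, and 6 had an unadjusted p under 0.05 in edgeR, as 72% of all genes did. Among the 13254 genes tested, 33.7% were called higher and 35.7% lower, so that 5 of 10 with none lower is to be read against a background in which most genes moved. The median log2 change of the 10 genes was 0.46, compared with −0.03 over all genes. That Camk2a differs between the tables was known when the family was chosen, and the values below describe that difference.

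Camk2a had 87233 normalized exon counts in the input of mouse E and 76053 in that of mouse F, and 118917 and 94793 in their IP libraries. Both IP values lay above both input values, with a log2 enrichment of 0.45 in mouse E and 0.32 in mouse F. The fitted change of 0.27 (SE 0.13) missed the threshold (adjusted p = 0.105, edgeR), and with the mouse as a replicate block it was called at the same size (0.27, adjusted p = 0.000934). Without the IP library of mouse F it was also called (0.44, adjusted p = 0.0142).

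Camk2b, the beta subunit, which also binds actin filaments, had 20352 and 18990 normalized exon counts in the inputs of mice E and F and 34193 and 31103 in the IP. The groups did not overlap, and the fitted change was 0.61 (SE 0.090, adjusted p = 0.00122, edgeR). Camk2d and Camk2g, the subunits that are also widely expressed outside the brain, changed less. Camk2d gave 2074 and 2379 normalized exon counts in the input against 2602 and 2594 in the IP, a fitted 0.11 (SE 0.10, adjusted p = 0.388). Camk2g gave 5564 and 6172 against 7727 and 7277, a fitted 0.24 (SE 0.094, adjusted p = 0.0606), and it was called with the replicate block (adjusted p = 0.00113).

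The inhibitor Camk2n1, a short protein that binds the active kinase, had 46326 and 45601 normalized exon counts in the input and 66212 and 69308 in the IP. Its fitted change of 0.44 (SE 0.076, adjusted p = 0.00244) lay between those of Camk2a and Camk2b. Under scaling by total counts it was 0.17 and no longer called (adjusted p = 0.103), which left 4 genes called higher on exons. In the cascade, Camkk1 showed the largest fitted change of the 10, at 1.01 (SE 0.23, adjusted p = 0.00826), with 4199 and 2752 normalized counts in the input and 8733 and 6402 in the IP. Camkk2 followed at 0.72 (SE 0.079, adjusted p = 0.000386), and its log2 enrichment was 0.84 in both mice.

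Camk4 had a fitted 0.48 (SE 0.23, adjusted p = 0.112) and was called with the replicate block (0.50, adjusted p = 1.56e-09). It ranged from 0.18 to 0.81 when each library was left out, and it was called without the input of mouse F (0.81, adjusted p = 0.00809) or the IP of mouse E (0.73, adjusted p = 0.0387). Its 2 mice differed in level, with 4934 and 7687 normalized exon counts in the input of mice E and F and 8081 and 11019 in the IP. Camk1d had 3789 and 4146 in the input and 4698 and 4560 in the IP, a fitted 0.11 (SE 0.091, adjusted p = 0.334). Camkv, which resembles a CaM kinase but lacks kinase activity, was called higher at 0.66 (SE 0.15, adjusted p = 0.00756). With the replicate block, which leaves 1 residual degree of freedom, 8 of the 10 genes were called higher instead of 5, the added ones being Camk2a, Camk2g and Camk4. The share of all genes called with the block is not given here, so the 8 cannot be set against a background.

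On CDS counts the same libraries gave another picture, since 4 genes were called lower in the IP and 3 higher. Camk2a, Camk2d, Camk2g and Camk1d were lower, and Camk2n1, Camkk1 and Camkv were higher. Of the 12211 genes tested on CDS, 36.5% were called higher and 39% lower, so that neither count of the 10 stands far from the share over all genes. The median log2 change of the 10 was 0.13, and that of all genes was −0.07.

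Camk2a had 22389 and 20437 normalized CDS counts in the inputs of mice E and F and 17482.5 and 12127 in the IP. Both IP values lay below both inputs, with a log2 enrichment of −0.36 in mouse E and −0.75 in mouse F, a mean of −0.55 ± 0.28 (SD, n = 2). On exon counts the same mean was 0.38 ± 0.091 (SD, n = 2). The fitted change on CDS was −0.66 (SE 0.16, adjusted p = 0.00528, edgeR), and it stayed between −0.91 and −0.38 when each library was left out in turn.

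The other genes that were lower on CDS followed the same course. Camk2d fell from 655 and 776 normalized CDS counts in the input to 479 and 496 in the IP, a fitted −0.69 (SE 0.14, adjusted p = 0.00157). Camk2g fell from 1910 and 2151 to 1514 and 1348, a fitted −0.64 (SE 0.13, adjusted p = 0.00160). The largest fall was that of Camk1d, a CaM kinase I isoform that the CaM kinase kinases activate. It had 495 and 723 raw CDS counts in the input and 89 and 91 in the IP, a fitted −1.76 (SE 0.17, adjusted p = 2.43e-05).

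Camk2b, which was called higher on exon counts, had 6957 and 6396 normalized CDS counts in the input and 8716 and 7342 in the IP, a fitted 0.13 (SE 0.12, adjusted p = 0.335). Camkk2 behaved alike, with a fitted 0.13 (SE 0.14, adjusted p = 0.396). Camk2n1 had nearly the value of the exon table, 0.49 (SE 0.098, adjusted p = 0.00170). Camkk1 (0.64, SE 0.23, adjusted p = 0.0295) and Camkv (0.51, SE 0.15, adjusted p = 0.0154) were called as well, and Camk4 (0.61, SE 0.29, adjusted p = 0.0846) was called with the replicate block (0.56, adjusted p = 0.000106). Camk4 ranged from 0.09 to 1.05 on CDS over the omissions, and it was called without the input of mouse E (0.86, adjusted p = 0.0131), without the IP of mouse F (1.05, adjusted p = 2.83e-10) or without a filter on low counts (0.68, adjusted p = 0.00944). Without the IP of mouse F, Camk2b (0.30, adjusted p = 0.0465) and Camkk2 (0.33, adjusted p = 0.0426) were called higher too. The calls of Camkk1 and Camkv were lost without the input library of mouse F, where they came to 0.32 each (adjusted p = 0.197 and 0.138).

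**Figure D1:**
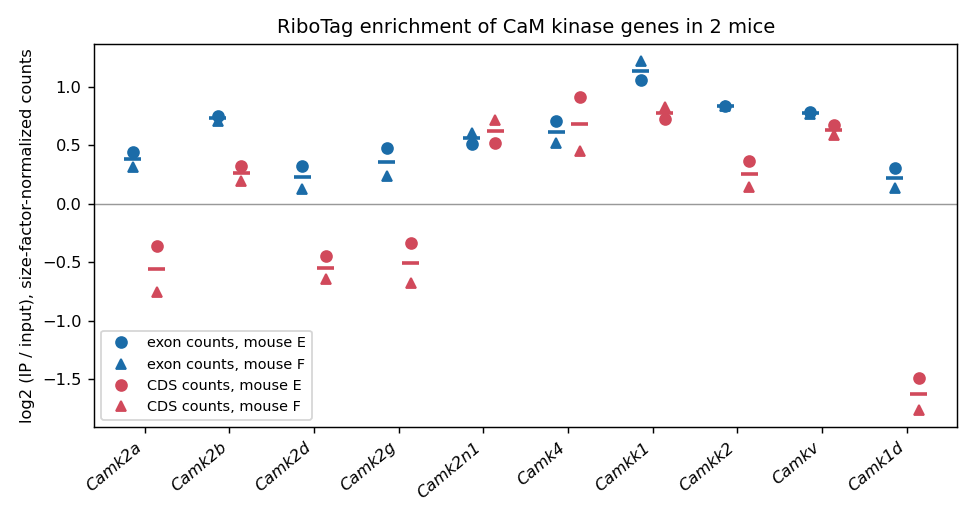
Log2 ratio of IP to input per mouse (vertical axis, counts divided by size factors of each table) for the 10 CaM kinase genes, on exon counts (blue) and CDS counts (red), with circles for mouse E, triangles for mouse F and a short line for the mean of both. Under this scaling all exon values lie above 0, whereas the CDS values of Camk2a, Camk2d, Camk2g and Camk1d lie below 0 in both mice.

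Both tables were scaled on the assumption that most genes do not move, and this matters for the direction of small changes. Scaling by total counts in place of edgeR's TMM factors moved the median of all genes from −0.03 to −0.31 on exons and from −0.07 to −0.51 on CDS. The fitted values of Camk2a, Camk2d, Camk2g and Camk1d on exons and of Camk2b and Camkk2 on CDS then fell below 0, and Camk2n1, Camkk1 and Camkv were no longer called higher on CDS. Relative to the median of all genes, Camk2a was at 0.31 on exons under TMM and 0.30 under total counts, and at −0.60 on CDS under both. The 4 genes called lower on CDS were lower under either scaling.

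Among 12156 genes tested in both tables, 939 (7.72%) were above 0 on exons and below 0 on CDS, as Camk2a, Camk2d, Camk2g and Camk1d were, and 654 had the opposite signs. Counting only genes called in both tables, 102 were higher on exons and lower on CDS, and 11 the reverse. Camk2a, Camk2d, Camk2g and Camk1d are not among these 102, since their exon changes were not called.

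**Figure D2:**
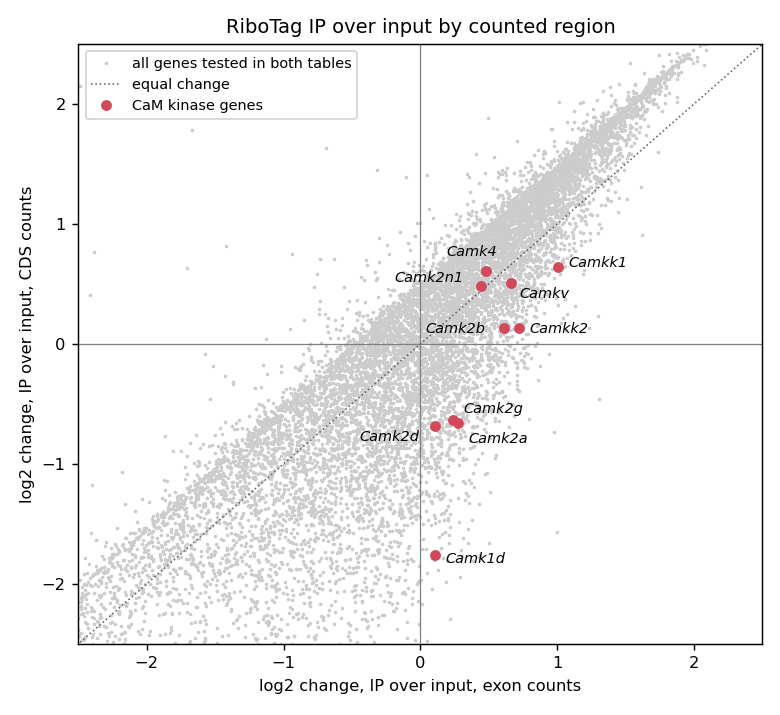
Fitted log2 change of IP over input on exon counts (horizontal axis) and on CDS counts (vertical axis) for all genes tested in both tables (grey) and the 10 CaM kinase genes (red), with a dotted line at equal change. Camk2n1 and Camk4 lie close to the line, the other 8 lie below it, and 932 genes lie beyond the axes, which end at 2.5 on either side of 0.

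The disagreement was then followed within each gene by the share of its exon counts that fell on CDS. For Camk2a this share was 31.0% in both inputs, 13.1% in the IP of mouse E (95% Wilson interval 12.9 to 13.4%) and 10.3% in that of mouse F (10.1 to 10.5%). The intervals cover counting error only, since reads were not collapsed by molecular identifiers. In the RNA-Seq libraries of mice A to D the share was 28.4 to 30.8%, close to the inputs. Put as raw counts, Camk2a had 66215 and 74530 exon counts outside CDS in the inputs against 77567 and 73756 in the IP, while its CDS counts went from 29802 and 33511 to 11742 and 8477.

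Camk1d had the lowest CDS share of the 10 in the IP, 2.52% in mouse E and 2.30% in mouse F, against 11.9% and 12.3% in the inputs. Camk2d went from 38.2 and 37.6% to 16.5 and 15.4%, and Camk2g from 41.5 and 40.2% to 17.5 and 14.9%. Camk2b, at 41.3 and 38.9% in the input and 22.8 and 19.0% in the IP, fell less in proportion than the other CaMKII genes. Camk2n1 went from 19.9 and 18.2% to 14.8 and 13.8%.

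The share fell across the libraries as a whole. The median gene had 68.0 and 66.9% of its exon counts on CDS in the inputs of mice E and F, 54.3 and 50.6% in the IP, and 65.3 to 66.5% in the RNA-Seq libraries of mice A to D. All 10 genes started below the median gene in every input, and Camkv (54.7 and 52.8%) came nearest to it. What part this shift of the whole IP libraries had in the values of the 10 genes was not tested by the shares themselves, and the next comparison sets each gene against it.

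**Figure D3:**
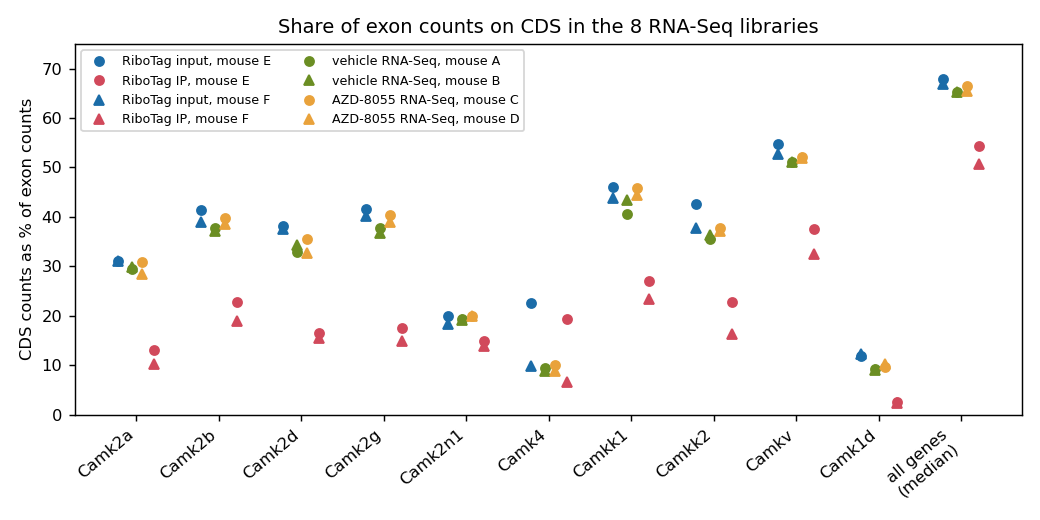
Percent of a gene's exon counts that fell on CDS (vertical axis) in each of the 8 RNA-Seq libraries, for the 10 CaM kinase genes and the median gene. The IP libraries (red) lie below the inputs (blue) of the same mouse in every column, and Camk4 of mouse E lies apart from all other mice.

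In a single model, CDS counts and the remaining exon counts of each gene were compared between IP and input, with the general shift taken up by the scaling of each library and region. The 2 counts of a library entered as separate samples, so the SE and p values leave out their pairing. With the library as a block, 8 of the 10 genes stayed the same, 2 became stronger and 0 turned in direction. A negative value means that CDS counts fell in the IP relative to the rest of the exons by more than in a typical gene. Camk1d (−1.47, SE 0.18, adjusted p = 0.000466, edgeR), Camk2g (−0.83, SE 0.16, adjusted p = 0.00474), Camk2a (−0.74, SE 0.25, adjusted p = 0.0470) and Camk2d (−0.68, SE 0.17, adjusted p = 0.0163) were called lower. Camk2n1 (0.51, SE 0.13, adjusted p = 0.0137) was called higher. That call depends on the rest of the exons as denominator, since with all exon counts in its place the value of Camk2n1 was below 0. Its CDS share of exon counts dropped as well, by mouse E from 19.9 to 14.8% (median gene 68.0 to 54.3%). By mouse F it dropped from 18.2 to 13.8% (median gene 66.9 to 50.6%). The higher call therefore does not show that CDS counts of Camk2n1 were spared. Of the 11989 genes tested, 14.7% were called lower and 14.2% higher, so that 4 lower and 1 higher of 10 compares with about even shares over all genes. The difference of Camk2a between the tables was known beforehand, so its place among the 4 is a description and not a test. The median of the 10 was −0.40, and that of all genes was 0.07.

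The call of Camk2a in this comparison was close to the threshold. It was lost without the input library of mouse E (−0.90, adjusted p = 0.0926) or of mouse F (−0.86, adjusted p = 0.0891), and with the replicate block it was −0.76 (adjusted p = 0.000138). Camk2d lost its call without either IP library (adjusted p = 0.0675 and 0.0780), and Camk2n1 lost its call without either input or without the IP of mouse F, with values of 0.32 to 0.51 over all 4 omissions. With the replicate block Camk2b (−0.33, adjusted p = 0.0279) and Camkk2 (−0.47, adjusted p = 0.0126) were called lower too, which makes 6, and Camkk2 was also called without the IP of mouse E (−0.71, adjusted p = 0.0235). Camkk1 (−0.26, SE 0.37, adjusted p = 0.646) and Camkv (−0.09, SE 0.23, adjusted p = 0.821) were not called. The share of all genes called with the block is not given here, so the 6 cannot be set against a background.

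Camk4 had the largest SE of the 10 in this comparison (0.63, SE 0.49, adjusted p = 0.377), and its 2 mice differed. In mouse E 22.7% of its exon counts were on CDS in the input (95% Wilson interval 21.6 to 23.8%) and 19.2% in the IP. In mouse F the shares were 9.81% (9.26 to 10.4%) and 6.52%, and the RNA-Seq libraries of mice A to D gave 8.87 to 9.93%. Raw CDS counts of Camk4 in the inputs were alike in both mice, 1231 and 1071, whereas those on the rest of its exons were 4200 in mouse E and 9849 in mouse F. Both libraries of mouse E thus stood apart from the other 6 RNA-Seq libraries in this gene, and the reason was not tested.

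The composition of CaMKII transcripts moved with the counted region as well. These shares are of raw counts without division by length, so they compare 1 gene between libraries and not 1 gene with another. On CDS, Camk2a took 70.2% (mouse E) and 68.7% (mouse F) of the counts of the 4 CaMKII genes in the input and 62.0 and 56.9% in the IP. Camk2b took 21.8 and 21.5% in the input and 30.9 and 34.4% in the IP. On exons the same shift was smaller, from 75.7 and 73.4% to 72.8 and 69.8% for Camk2a and from 17.7 and 18.3% to 20.9 and 22.9% for Camk2b. In both tables and both mice the share of Camk2a was lower, and that of Camk2b higher, in the IP than in the input of the same animal.

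Genes of the wider calcium/calmodulin pathway were read in 5 lists, again by edgeR's test over all genes. The counts of each list are to be read beside the shares over all genes. These were 33.7% called higher and 35.7% lower on exons, and 36.5% and 39% on CDS. The median log2 change over all genes was −0.03 on exons and −0.07 on CDS. Of 12 other CaM-dependent kinases and relatives, 5 were called higher and 1 lower in the IP on exons, and 5 higher and 4 lower on CDS. Camk1, the CaM kinase I alpha gene, was higher in both tables (1.33 on exons and 1.79 on CDS), and so was Dapk3, a death-associated protein kinase (1.50 and 1.96). Mylk, a myosin light chain kinase, was lower in both (−1.42 and −2.11), and Cask, a synaptic scaffold with a CaM kinase-like domain, was lower on CDS (−0.96).

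Of 12 genes for calmodulin and calmodulin-binding proteins, 8 were called higher and 2 lower on exons, with a median of 0.88. Nrgn, neurogranin, which holds calmodulin at low calcium, was at 2.09 on exons and 2.50 on CDS, but it also served as a marker of excitatory neurons. Itpka, an inositol trisphosphate kinase, was at 1.79 and 2.15. Nos1, the neuronal nitric oxide synthase of interneurons, was at −3.37 and −2.88. Adcy1, a calmodulin-stimulated adenylyl cyclase, was at −0.77 on exons and −3.05 on CDS, and it was the list's largest fall when CDS was set against the rest of its exons (−1.95, SE 0.17, adjusted p = 0.000122).

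Of 12 phosphatase genes, 8 were called higher and 1 lower on exons, and 5 higher and 4 lower on CDS. Rcan1, a regulator of calcineurin, was higher in both tables (1.23 and 1.30), and Ppp3ca, a catalytic subunit of calcineurin, was higher on exons (0.87). Ppm1e, a phosphatase that dephosphorylates CaM kinases, was at −0.34 on exons and −2.49 on CDS, and its relative Ppm1f was at −1.33 on CDS. Ppp1ca, a catalytic subunit of protein phosphatase 1, was at 1.07 on CDS. Ppm1e was the only gene of this list called when CDS was set against the rest of the exons (−2.00, SE 0.17, adjusted p = 0.000118).

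Of 13 synaptic partners and substrates of CaMKII, 12 were in the tables, of which 3 were called higher and 3 lower on exons and 3 higher and 6 lower on CDS. Stx1a, a SNARE protein of the presynaptic membrane, was higher in both tables (1.45 and 1.36), and so was Dlg4, which encodes PSD-95 (0.87 and 1.01). Grin2a, an NMDA receptor subunit, was lower in both (−2.33 and −1.87), Lrrc7, the postsynaptic protein densin-180, was lower on exons (−1.45), and Shank3, a postsynaptic scaffold, was lower on CDS (−1.53). Of 7 targets of the CaM kinase kinase cascade, 1 was called higher and 3 lower on exons and 1 higher and 6 lower on CDS, with a median of −0.12 on exons and −1.26 on CDS. Akt1, a kinase that CaM kinase kinase can phosphorylate, was the higher gene in both (0.47 and 0.62), and Creb1, the transcription factor downstream of Camk4, and Prkaa2, a catalytic subunit of the AMP-activated kinase, were at −2.09 and −2.06 on CDS. Crebbp, a coactivator of CREB, and Prkaa1, the other catalytic subunit, were the largest falls on exons (−1.48 and −0.51).

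Translation efficiency (TE) was taken as the ratio of normalized footprint to RNA-Seq counts on CDS in the same mouse, so that 1 gene's coding length cancels. In the vehicle-treated mice, 6 of the 10 genes lay above the median TE of 10879 genes and 4 below it, and the family spanned a log2 TE of −1.21 to 2.50. All 4 CaMKII genes were above the median, and their inhibitor Camk2n1 was lowest. By edgeR's test 6 genes had a footprint level above and 3 below their RNA-Seq level, and the lower call of Camkk1 was lost without mouse B (−0.22, adjusted p = 0.0908). Of the 11797 genes tested, 36.5% were called above and 37.3% below, so that the calls alone say little and the positions among all genes are given instead.

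Camk4 had the highest log2 TE of the 10, with 2.43 in mouse A against 2.57 in mouse B, at percentile 99.3 of all genes. It had 342 and 300 normalized RNA-Seq counts and 1846 and 1782 normalized footprint counts. Camk1d followed at 2.23 and 2.17 (percentile 98.8), and Camk2d at 1.57 and 1.44 (percentile 95.5). Camk4 and Camk1d were also the genes with the lowest CDS share of the 10 in the RNA-Seq libraries of these mice, 8.87 to 9.41% and 8.99 to 9.24%, and the part of that share in their TE was not tested.

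Camk2g had a log2 TE of 0.78 and 0.83 (percentile 82.4) and Camk2b of 0.56 and 0.54 (percentile 73.8). Camk2a, with 11730 and 12169 normalized RNA-Seq counts and 17260 and 15605 normalized footprint counts, gave 0.56 in mouse A against 0.36 in mouse B (percentile 70.2). The values of Camk2a and Camk2b overlapped, and those of Camk2g lay above both in each mouse. For Camk2a the fitted excess of footprints over RNA-Seq was 0.50 (SE 0.060, adjusted p = 1.70e-06, edgeR).

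Below the median lay Camkv at −0.09 and −0.26 (percentile 42.0), Camkk1 at −0.24 and −0.37 (percentile 36.5), and Camkk2 at −0.48 and −0.54 (percentile 28.9). Camkv and Camkk1 overlapped in their values, and Camkk2 lay below both. Camkv was not called (fitted −0.13, SE 0.064, adjusted p = 0.0874), but it was called lower under scaling by total counts (−0.26, adjusted p = 0.000949), which moved the median of all genes from −0.01 to −0.15, with a mean of 10 counts as the filter (−0.17, adjusted p = 0.0292) and without a filter (−0.21, adjusted p = 0.0264). Camk2n1 was at −1.21 and −1.22 (percentile 11.2), with 5093 and 5079 normalized RNA-Seq counts and 2205 and 2181 footprint counts. Its CDS share of 19.2 to 19.4% in these libraries was the next lowest after those of Camk4 and Camk1d, and the part of that share in its TE was not tested.

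**Figure D4:**
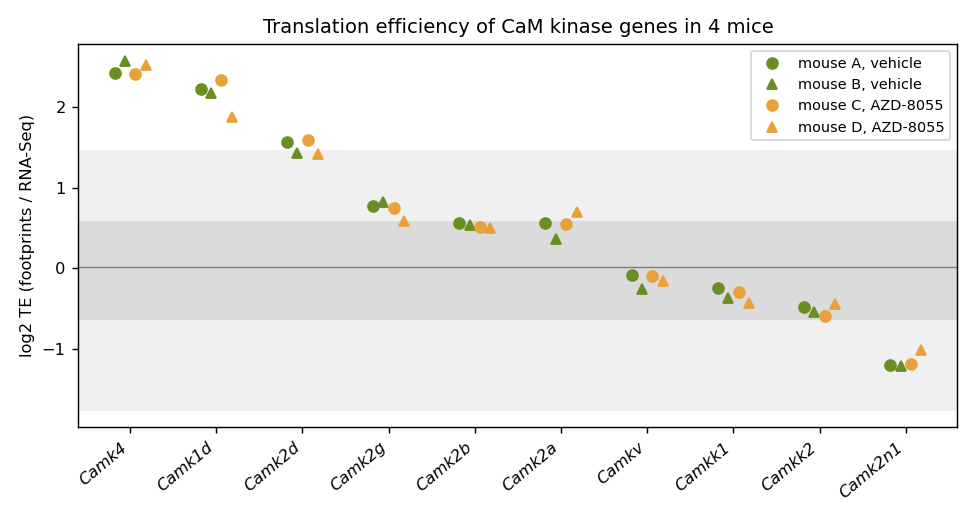
Log2 TE per mouse (vertical axis) of the 10 CaM kinase genes in falling order of their vehicle mean, with vehicle-treated mice A and B in green and AZD-8055-treated mice C and D in orange. The line is the median of all genes (0.016), the dark band spans the 25th to 75th percentile (−0.63 to 0.58) and the light band the 5th to 95th percentile (−1.76 to 1.46), and the order runs from Camk4 and Camk1d above the light band to Camk2n1 below the dark one.

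In the tissue lysates, the share of Camk2d among CaMKII counts on CDS was 2.95 and 2.84% in RNA-Seq and 5.70 and 5.52% in footprints of mice A and B. The share of Camk2a was 64.8 and 67.3% in RNA-Seq and 62.2 and 61.9% in footprints. In the pathway lists, Nos1 had a fitted footprint excess of 1.37, Grin2b of 4.46 and Grin2a of 2.74, Prkaa2 of 2.37 and Creb1 of 2.10. Ppp3r1, the regulatory subunit of calcineurin, had 1.96, Ppm1e 1.74, Cask 1.59 and Dclk1, a doublecortin-like kinase, 1.52. At the other end were Shank3 (−2.26), Dlg4 (−2.20), Akt1 (−1.89), Camta2, a calmodulin-binding transcription activator (−1.66), and Dapk1, a death-associated protein kinase (−1.32). Itpka (−1.04), Eef2k, the kinase of elongation factor 2 (−0.88), Ppp3cc, a catalytic subunit of calcineurin (−0.74), and Ppp1ca (−0.50) were below their RNA-Seq level too. Of the 12 other CaM-dependent kinases 2 were called above and 6 below, of the calmodulin list 6 and 4, of the phosphatases 7 and 2, of the synaptic partners 7 and 2, and of the cascade targets 5 and 1. Over all genes, 36.5% were called above and 37.3% below.

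One hour after AZD-8055 no gene of the family was called in RNA-Seq, in footprints or in TE, by edgeR or by DESeq2. At an unadjusted p under 0.05, 4 of 10 passed in RNA-Seq, 4 in footprints and 0 in TE with edgeR, and 4, 3 and 0 with DESeq2. Over all genes, the shares at this unadjusted threshold were 8.24%, 12.8% and 6.75% with edgeR and 3.16%, 5.39% and 3.41% with DESeq2. Few genes of the whole table were called at 2 mice per group, namely 0.0575% higher and 0.0903% lower of 12182 genes in RNA-Seq, 0.0468% higher and 0.982% lower of 10695 genes in footprints, and 0.0763% higher and 0.788% lower of 11797 genes in TE. A miss of the threshold therefore does not show that these genes were unaffected.

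Camk2a had 11730 and 12169 normalized RNA-Seq counts in the vehicle-treated mice and 12672 and 11182 in the mice given AZD-8055, which overlap. Its footprints were 17260 and 15605 in vehicle and 18622 and 18182 after AZD-8055, which do not. The fitted changes were −0.03 (SE 0.059, adjusted p = 0.941) in RNA-Seq, 0.17 (SE 0.048, adjusted p = 0.189) in footprints and 0.17 (SE 0.085, adjusted p = 0.754) in TE. In footprints Camk2a was called without mouse C (0.17, adjusted p = 0.00586) or without mouse D (0.16, adjusted p = 0.0372), where 1 remaining treated mouse is assumed to vary like the vehicle-treated ones. Camk2n1 was called without mouse C as well (0.32, adjusted p = 0.00806).

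Camkv had the largest footprint value of the 10, with 3295 and 2948 normalized counts in vehicle and 3745 and 3606 after AZD-8055, a fitted 0.24 (SE 0.068, adjusted p = 0.189). Camkk2 (0.21, SE 0.076, adjusted p = 0.310), Camk2n1 (0.18, SE 0.098, adjusted p = 0.464) and Camk2b (0.17, SE 0.058, adjusted p = 0.277) also had both treated mice above both vehicle-treated ones. In all, 5 of 10 genes were higher without overlap in footprints and 0 lower, where 20.2% of all genes were higher and 20% lower in this way. In RNA-Seq 6 were higher without overlap (Camk2b, Camk2g, Camk2n1, Camkk2, Camkv and Camk1d) and 1 lower (Camk2d), where the shares over all genes were 23.6% and 15.8%.

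The summed levels of the excitatory, inhibitory and striatal neuron markers were higher after AZD-8055 in RNA-Seq and in footprints. Those of the glial and endothelial markers overlapped between the groups in RNA-Seq. The summed level of the excitatory neuron markers on CDS was 2406 to 2553 CPM in RNA-Seq of the vehicle-treated mice and 2640 to 2824 CPM after AZD-8055, and in footprints 1884 to 1951 and 2165 to 2218 CPM. That of 5 striatal projection neuron markers was 1356 to 1398 CPM and 1544 to 1678 CPM in RNA-Seq, where 1 of the 5 was called higher. In the same order, the inhibitory neuron markers were at 1177 to 1213 and 1249 to 1302 CPM in RNA-Seq. Astrocyte markers were at 1024 to 1175 and 1021 to 1124 CPM, and oligodendrocyte markers at 2440 to 2823 and 2368 to 2679 CPM. The part of tissue composition in the values of the CaM kinase genes was not tested. For TE, which compares both libraries of 1 lysate, the fitted values of the 10 genes ran from −0.13 (Camk2g) to 0.17 (Camk2a), with a median of −0.02 compared with −0.01 over all genes.

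**Figure D5:**
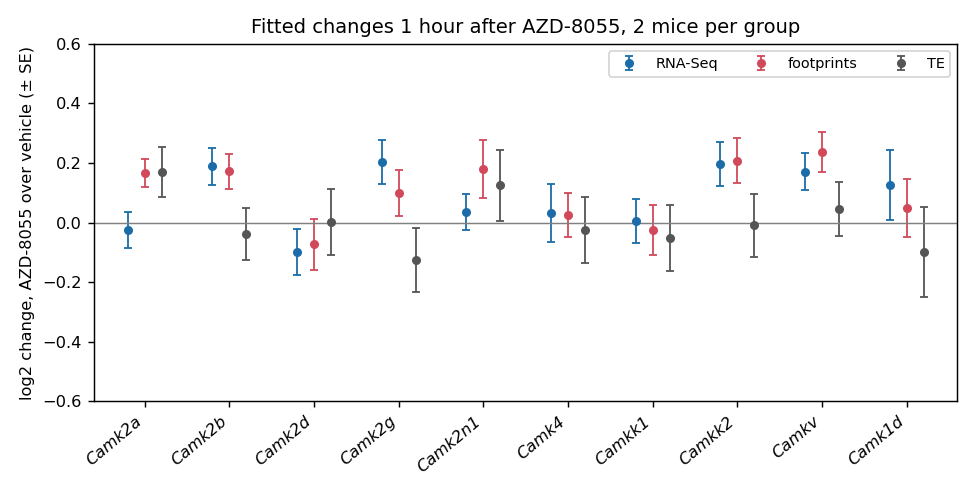
Fitted log2 change after AZD-8055 over vehicle (vertical axis, bars are 1 SE, 2 mice per group) of RNA-Seq (blue), footprints (red) and TE (grey) for the 10 CaM kinase genes. Every value lies between −0.13 and 0.24, and none passed the adjusted threshold.

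Across the 55 tested genes of the 5 pathway lists, edgeR and DESeq2 likewise called 0 after AZD-8055 in RNA-Seq, footprints and TE. At an unadjusted p under 0.05 edgeR passed 2, 9 and 6 of them in that order and DESeq2 1, 6 and 4, to be read against the shares over all genes given above for the same threshold.

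Genes with a profile like that of Camk2a were ranked by Euclidean distance over 6 log2 values, the enrichment of mice E and F on exons and on CDS and the TE of mice A and B, among 9645 other genes. The nearest was Fbxw11, a subunit of a ubiquitin ligase, at a distance of 0.15, followed by Rapgef2, an activator of Rap GTPases (0.25), the kinase Dyrk1a, the methyltransferase Icmt and the GABA-A receptor subunit Gabra4 (0.31 each). Of the family, Camk2g came nearest at rank 52 (distance 0.53) and Camk2b next at rank 1051 (1.28). Camk4, at rank 7311, was the farthest. The distances share their libraries and describe these 6 values only.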

How the data were processed

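Counts were analysed as deposited. According to the methods and the submitters' processing notes, the authors trimmed footprint reads, removed rRNA with Bowtie2, aligned with TopHat2 to mm10 and counted reads on CDS or exons with HTSeq (the annotation is not given in the sources used here). The authors' counts were not normalized. Enrichment and TE are ratios of counts divided by DESeq2 1.42.0 size factors, over genes with at least 75 counts per library kind for TE. Changes were fitted in edgeR 4.0.16 (R 4.3.3, TMM, quasi-likelihood F-test, Benjamini-Hochberg adjustment), after the procedure was tested on simulated data. The simulated libraries were independent and the changes of a single size, so that test does not bear on libraries sharing a mouse or on smaller changes. For CDS against the rest, exon minus CDS counts were used, with values below 0 set to 0.

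Same-letter libraries come from 1 animal. Deviations correlated across genes between libraries of a mouse (0.25 for A and B, 0.24 for C and D, 0.55 for E and F), and a replicate block for the mouse was an alternative. The others were DESeq2's test, other scalings and filters, a fold limit of 2, exon for CDS counts and omission of each library or mouse. The 2 libraries of each group differed by more than counting error.

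The members, lists and tests were chosen with earlier results of these data known. Named were all members, the 2 largest called rises and falls per list, and the 5 genes nearest to Camk2a. A gene that this rule covers is not reported here. TruSeq V2 does not mark strand, so overlapping genes may share reads. The paper's RiboDiff test was not run.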

Additional observations from a re-analysis of the deposited data

How the results depend on the processing

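The 4 members lower in the IP on CDS kept their direction and call under every alternative but the fold limit. The mouse as a replicate block raised the exon calls to 8 and changed no call of the members other than those given above. Without a filter on low counts or with DESeq2, 8 members were higher on exons too, under total counts 4 were, and with a fold limit of 2 only 1 was. Shares over all genes are not given for these alternatives, so the counts in this paragraph show only how the calls of the members moved. On CDS 0 were higher under total counts or the fold limit, 1 to 6 without single libraries, and 1 was lower under the fold limit. For CDS against the rest, 0 were higher under total counts, without a filter, with exon counts in place of the rest and under the fold limit, 0 to 1 without single libraries, and 1 was lower under the fold limit. Footprints over RNA-Seq gave 3 above and 1 below under the fold limit. After AZD-8055, 0 to 2 members were higher in footprints without single mice.

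Camk2a on exons was −0.0070 under total counts (the mean log2 ratio of mice E and F was −0.0097, and −1.12 on CDS), 0.30 with DESeq2, 0.36 with a mean of 10 counts or no filter, 0.27 with the replicate block and 0.14 to 0.44 without single libraries. For CDS against the rest it was −0.73 (adjusted p = 0.0542, edgeR) with a mean of 10 counts and −0.90 to −0.64 without single libraries. Under total counts, exon values were −0.17 for Camk2d, −0.041 for Camk2g and −0.17 for Camk1d, and CDS values −0.31 for Camk2b (called, adjusted p = 0.0485) and −0.31 for Camkk2. With exon counts in place of the rest, Camk2n1 was −0.17 and Camk4 −0.084. These shifts under total counts follow from the moved median of all genes, and the cause of the others was not tested. Directions also turned without single libraries or mice for members that were not called. The ranges were −0.0028 to 0.18 (Camk2d, exons) and −0.24 to 1.38 (Camk4, CDS against the rest). After AZD-8055 they were, in RNA-Seq, −0.11 to 0.054 (Camk2a), −0.020 to 0.090 (Camk2n1), −0.051 to 0.12 (Camk4) and −0.067 to 0.086 (Camkk1). In footprints they were −0.15 to 0.0061 (Camk2d), −0.078 to 0.031 (Camkk1) and −0.087 to 0.18 (Camk1d). In TE they were −0.056 to 0.069 (Camk2d), −0.12 to 0.067 (Camk4), −0.095 to 0.0058 (Camkk1), −0.10 to 0.091 (Camkk2), −0.013 to 0.11 (Camkv) and −0.30 to 0.12 (Camk1d). Camkk1 in RNA-Seq was −0.0026 under total counts and −0.071 on exons, Camk4 in footprints −0.0062 and Camk2d in TE −0.042 without a filter, and TE under total counts was 0.012 for Camk4 and 0.029 for Camkk2.

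With 2 mice per group, 1 library decides several calls. The isozyme shares per coding length were not run, because no coding lengths were used here. The block on library in the comparison of regions was chosen after seeing the data. Footprint depth was lowest in mouse C.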

Other observations

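The NMDA receptor subunit gene Grin1, a binding partner of CaMKII, was counted more often on CDS than on exons in the inputs (9342 against 8566 counts in mouse E and 10773 against 9566 in mouse F) and less often in the IP (4421 against 6557 and 4412 against 7253). Its rest of exons was therefore 0 in the inputs, and no value is given for it in the comparison of CDS with the rest. Among 12213 genes with a mean of at least 37 CDS counts, 310 had more CDS than exon counts, and none of the 10 CaM kinase genes was among them.

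Across 11970 genes, the change of CDS against the rest of the exons had a Pearson r of 0.025 and a Spearman rho of 0.36 with the CDS share in the inputs, as a description across genes that share 4 libraries and are not independent replicates. In the wider pathway, 2 of 12 other CaM-dependent kinases were called higher and 3 lower in this comparison, 5 and 2 of 12 calmodulin genes and 1 and 3 of 11 synaptic partners, Grin1 left out, while 1 of 12 phosphatases and 3 of 7 cascade targets were called lower. Over all genes, 14.2% were called higher and 14.7% lower. Adcy8, a calmodulin-stimulated adenylyl cyclase, and Lrrc7 were higher, at 3.01 (SE 0.47, adjusted p = 0.00151, edgeR) and 1.61 (SE 0.32, adjusted p = 0.00492). The fitted IP changes of Adcy8 itself were −0.53 on exons and 0.07 on CDS. How many of its exon counts lay outside CDS, on which the 3.01 depends, was not examined. Camk1 (1.14), Nrgn (0.93) and Eef2k (0.59) were higher as well. Prkaa2 (−1.65) and Creb1 (−1.57) were lower, as were Camta1 (−1.14), Cask (−1.10), Dclk2 (−0.82), a doublecortin-like kinase, and Tiam1 (−0.69), a Rac activator.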
